A study of Homo sapiens with 6 samples.

Results

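The expression of 33 genes that regulate apoptosis or are targets of the transcription factor p53 was compared between a breast cancer line transduced with maspin (MB-231-maspin) and its control (MB-231-control). The members were taken from a list of names, and a gene was represented by the rows of the scanner files that carry its symbol. Of the 33 members, 31 had a probe, out of 19771 genes named on the array, and for BAD and DIABLO no expression value was analysed here. Where a gene had several probes, which was so for 8 members, the probe with the highest mean over the 6 arrays stood for it.

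In apoptosis, BAX and BAK1 open the outer membrane of mitochondria, anti-apoptotic proteins of the BCL2 family hold them back, and the small BH3-only proteins relieve that block. Released cytochrome c then assembles APAF1 and caspase-9 into the apoptosome, whereas death receptors such as FAS recruit FADD and caspase-8 at the cell surface. The tumor suppressor p53 induces several of these genes as well as CDKN1A, which stops the cell cycle, and MDM2, which degrades p53.

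Both stable lines were derived from MDA-MB-231, a triple-negative breast cancer cell line, with lentivirus. For MB-231-maspin the virus encoded Maspin-P2A-ZsGreen, in which a self-cleaving P2A peptide links maspin with a green fluorescent protein, and for MB-231-control it encoded only ZsGreen. After selection with blasticidin the surviving clones were pooled, so 1 pool stands for each line. RNA of each line, amplified and coupled to Cy5, was measured on 3 oligonucleotide arrays of the 3D-Gene type, which use 1 colour. Whether the arrays within a group stem from different cultures is not given in the sources used here, so a p-value covers the variation among these arrays only, and that may be technical.

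The values are normalized intensities, that is, spot intensities corrected for background and scaled by the authors to a median of 25 per array. Of the 24460 gene probes, 87.1% to 91.3% had such a value on an array. The probe of SERPINB5, which encodes maspin, lay at 2.79 to 4.40 on the arrays whose label is MB-231-maspin (maspin-labelled arrays) and at 4.11 to 5.61 on the control-labelled arrays (control arrays), and thus no higher with maspin. Both ranges lie near the brightest negative control spot of an array, which was between 2.58 and 9.35. Of the genes that mark a mesenchymal triple-negative line, VIM lay between 11687 and 13757 and EGFR between 35.3 and 48.5. Of those expected to be low, ESR1, the estrogen receptor, was blank on all 6 arrays, while CDH1 lay between 46.3 and 63.7, GATA3 between 20.9 and 28.6 and FOXA1 between 24.2 and 26.5. The leukocyte gene PTPRC was at 2.03 or lower where it was measured, and CD14 reached 25.2. Of the fibroblast genes, DCN lay between 54.6 and 67.9, PDGFRB between 26.4 and 37.7 and LUM between 8.62 and 12.2. Of the genes of normal mammary epithelium, KRT14 lay between 170 and 193 and KRT5 between 46.3 and 55.1. TP63, also of that set, was at 2.04 or lower where it was measured. The markers thus did not all follow the type of the line. Whether the SERPINB5 probe lies in the stretch that the virus carries is not given in the sources used here, so it does not check the labels. By RT-qPCR and western blot, the study reported that MB-231-maspin overexpressed maspin mRNA and protein relative to its control. Those measurements were not used here, and every direction rests on the labels.

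None of the members passed limma at an adjusted p under 0.05, where 0.854% of all 12766 genes tested did (0.533% higher and 0.321% lower). A gene was tested if its mean was above 10 in either group and at least 2 arrays of each group had a value, and 29 of the 31 members met this. At an unadjusted p under 0.05, 4 members were higher on the maspin-labelled arrays (CDKN1A, BCL2, BCL2L11 and BCL2L2) and 1 was lower (BIK). Together these were 17.2% of the members tested, against 13.3% of all genes (9.49% higher and 3.84% lower). Among them, BCL2 had a mean above 10 only on the maspin-labelled arrays. The groups did not overlap for 6 members, or 20.7%, with the maspin-labelled arrays above for 4 and below for 2, and the share over all genes was likewise 20.7% (13.8% above and 6.87% below). The median log2 fold change was 0.08 over the members and 0.04 over all genes, and 20 of the 29 members lay above 0, against 59.9% of all genes.

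**Figure D1:**
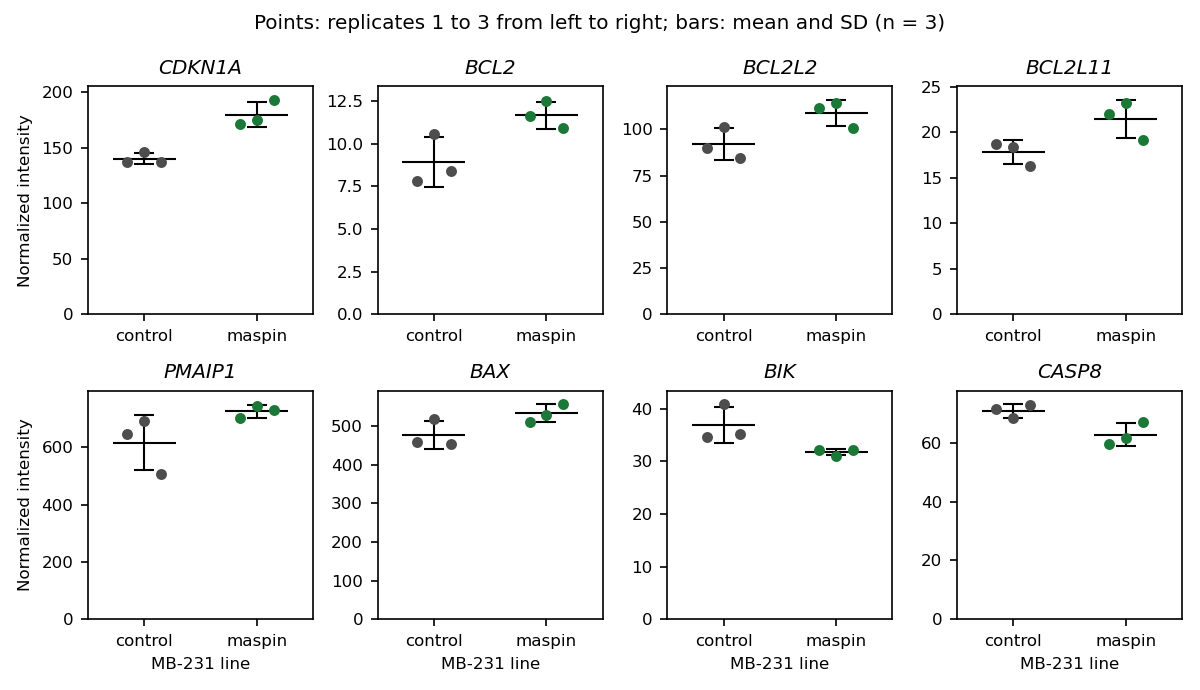
Normalized intensity (linear axis from 0) of 8 members on the 3 arrays of each line, with the mean and SD. CDKN1A runs from 137 to 146 on the control arrays and from 171 to 193 on the maspin-labelled arrays; BCL2L2 and BAX overlap between the lines.

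The clearest difference was that of CDKN1A (Entrez Gene 1026, chromosome 6), which encodes the cyclin-dependent kinase inhibitor p21. It lay at 137, 146 and 137 on the control arrays (mean 140.0 ± 5.20, SD, n = 3) and at 171, 175 and 193 on the maspin-labelled arrays (mean 179.7 ± 11.5, SD, n = 3). All 3 maspin-labelled arrays were above all 3 control arrays. The fold was 1.28 with a 95% interval of 1.13 to 1.46 (log2 fold change 0.36, standard error, SE, 0.08) and the adjusted p from limma was 0.121, the smallest of the members. Whichever array was left out, the log2 fold change remained between 0.31 and 0.39, and the adjusted p stayed above the threshold under every alternative tried (0.0606 to 0.521). CDKN1B, which encodes the related inhibitor p27 and is not a classical target of p53, lay between 73.8 and 86.7 on the control arrays and between 79.4 and 90.7 on the others (log2 fold change 0.08, SE 0.09), so the groups overlapped.

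BAX (Entrez Gene 581, chromosome 19), a pore-forming effector that earlier work linked to maspin, overlapped between the groups. It was at 460.5, 520.2 and 454 on the control arrays (mean 478 ± 36.6, SD, n = 3) and at 512, 530.0 and 558 on the maspin-labelled arrays (mean 533 ± 23.3, SD, n = 3). Control replicate 2 lay above maspin replicate 1. The log2 fold change was 0.16, with an SE of 0.08 and an adjusted p of 0.464 from limma, and the 95% interval of the fold ran from 0.97 to 1.28. The other effector, BAK1, had the widest 95% interval of the tested members, with 200.3, 146 and 87.2 on control replicates 1, 2 and 3 and 126, 171 and 185 on the maspin-labelled arrays. A second BAK1 probe was far steadier, between 66.0 and 75.3 over the 6 arrays, with a log2 fold change of 0.12 (SE 0.08) against 0.21 (SE 0.28) for the brighter probe.

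Maspin is known to bind the histone deacetylase HDAC1, which acts on promoters. The 150 bases before the transcription start of CDKN1A and BAX are shown because these are the members that earlier work on maspin named. They are taken from RefSeq (GRCh38.p14) and lie on the plus strand at chr6:36678564-36678713 for CDKN1A and at chr19:48954725-48954874 for BAX. Capitals mark the GC box, the letters GGGCGG or their reverse complement CCGCCC, which is bound by Sp1 factors.
CDKN1A: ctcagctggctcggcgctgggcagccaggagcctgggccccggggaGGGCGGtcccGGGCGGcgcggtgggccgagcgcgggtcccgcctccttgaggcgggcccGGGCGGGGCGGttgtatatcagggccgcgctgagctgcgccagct
BAX: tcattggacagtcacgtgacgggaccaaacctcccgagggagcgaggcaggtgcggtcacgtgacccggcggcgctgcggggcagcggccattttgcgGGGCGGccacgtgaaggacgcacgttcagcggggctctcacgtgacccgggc
The CDKN1A stretch held 4 GC boxes, 2 of them overlapping, and the BAX stretch held 1. Over the whole windows of 300 bases, from 250 before to 50 after the start, a GC box was found on either strand for 24 of the 28 members with a promoter in the table (85.7%), against 48.3% of all 27305 genes there. The decamer of the p53 response element was found for 5 members (17.9%) and for 8.06% of all genes, and was in neither window shown. The members have more windows per gene (55 for 28 genes) than all genes (35116 windows), and counted per window the decamer was found in 9.09% against 6.63% and the GC box in 74.5% against 45%. All 27305 genes with a promoter were counted, which is more than the 19771 named on the array. They were not matched to the members in type or expression. These matches describe letters only.

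By the probe that stood for each gene, all 4 anti-apoptotic members lay above 0, as did 59.9% of all genes. BCL2 (Entrez Gene 596), the founding member of the family, was dim, at 7.78, 10.6 and 8.38 on the control arrays and at 11.6, 12.5 and 10.9 on the maspin-labelled arrays. Its mean was 8.92 on the control arrays and 11.7 on the maspin-labelled arrays, so it met the minimum for testing only through the group where it was higher. The groups did not overlap, with a fold of 1.32 (95% interval 1.08 to 1.60) and a log2 fold change of 0.40 (SE 0.12, limma adjusted p = 0.223). BCL2 passed the adjusted threshold without control replicate 2 (log2 fold change 0.53, limma adjusted p = 0.0476) and in no other alternative. In that setting 26.1% of all genes had an unadjusted p under 0.05, against 13.3% with all 6 arrays. With normexp background correction the log2 fold change of BCL2 was 0.11. A second BCL2 probe, below the minimum for testing, was at 8.67 to 11.2 on the control arrays and at 7.84 to 9.85 on the others. Its groups overlapped, with the lower range on the maspin-labelled arrays. The remaining probe was blank on 3 of the 6 arrays and at 1.00 to 2.25 on the others.

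BCL2L2, which encodes BCL-w, was at 90.0, 101.5 and 84.6 on the control arrays and at 112, 114 and 100.7 on the maspin-labelled arrays (log2 fold change 0.24, SE 0.10; limma adjusted p = 0.324). Its ranges overlapped by the values of control replicate 2 and maspin replicate 3. BCL2L1, which encodes BCL-xL, was spread from 99.5 to 126 on the control arrays but stood between 125 and 127 on all 3 maspin-labelled arrays. MCL1, a short-lived survival protein, was the brightest of these members, at 445 to 522 on the control arrays and 482 to 550 on the others, with a log2 fold change of 0.10 (SE 0.09). A much dimmer MCL1 probe, between 10.4 and 14.8, had a log2 fold change of -0.21 (SE 0.14). In the array annotation it carries a genomic record, and the brighter MCL1 probe a transcript record.

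**Figure D2:**
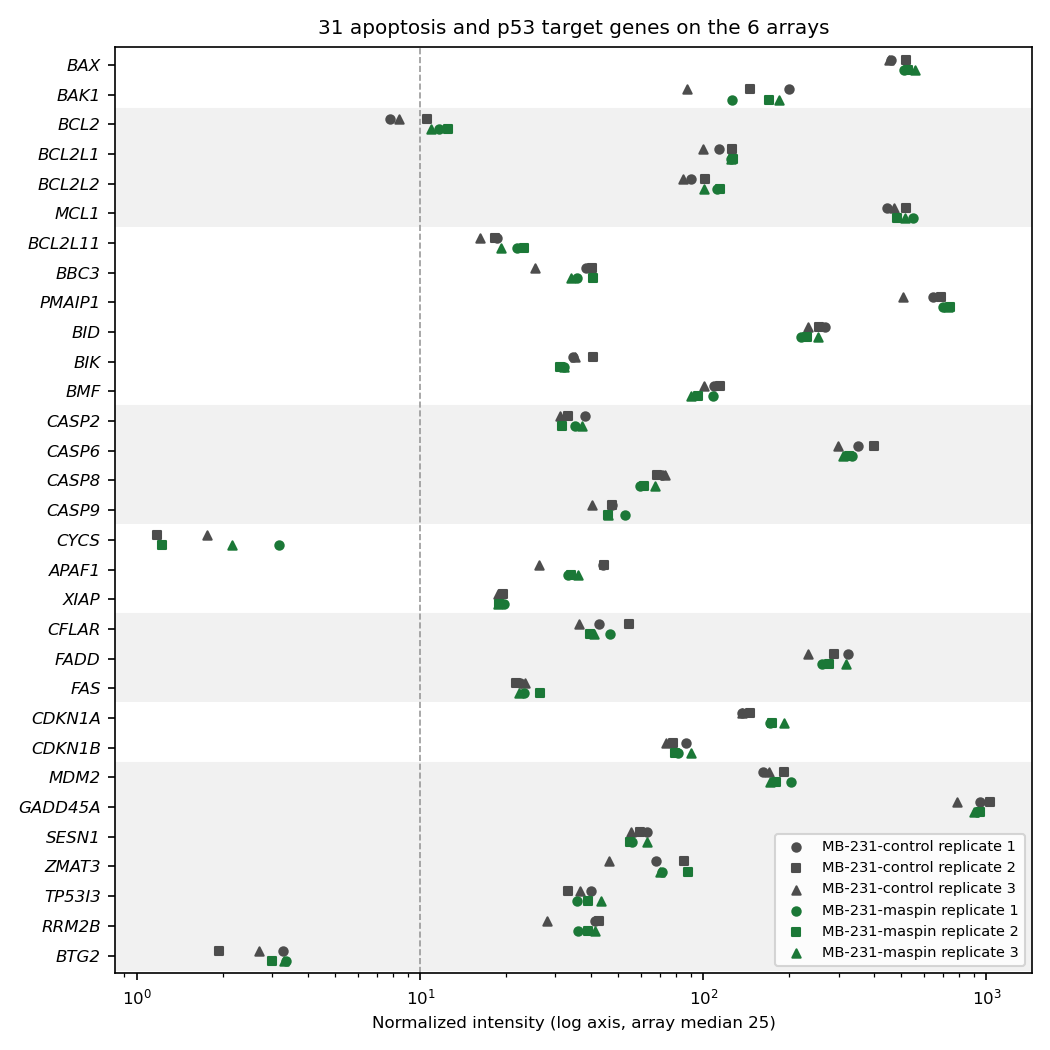
Normalized intensity (log axis) of the 31 members on each of the 6 arrays, ordered by role, with the minimum of 10 used for testing as a dashed line. CYCS and BTG2 lie under the minimum on all arrays, and CYCS has no point for control replicate 1, where it was blank.

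Among the BH3-only members, 3 of 6 lay above 0 and 3 below. BCL2L11, which encodes BIM, was at 18.7, 18.4 and 16.3 on the control arrays and at 22.0, 23.2 and 19.2 on the maspin-labelled arrays. The groups did not overlap (log2 fold change 0.27, SE 0.10; limma adjusted p = 0.299). PMAIP1, which encodes the p53 target NOXA, was at 647, 693 and 508 on the control arrays and at 701, 745 and 731 on the others. These groups did not overlap either, although control replicate 2 came close to maspin replicate 1, and the log2 fold change of 0.25 (SE 0.12, limma adjusted p = 0.417) was 0.12 without control replicate 3.

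BIK was lower on the maspin-labelled arrays, at 32.2, 31.1 and 32.1, than on the control arrays, at 34.6, 40.9 and 35.1. The groups did not overlap, and the log2 fold change was -0.21 (SE 0.09, limma adjusted p = 0.354), or -0.13 without control replicate 2, the highest of the 6. BBC3, which encodes the p53 target PUMA, was at 38.3, 40.3 and 25.5 on the control arrays and at 34.1 to 40.7 on the others, so that its log2 fold change of 0.11 turned to -0.10 without control replicate 3. BID, which caspase-8 cleaves to link the death receptors to mitochondria, had -0.10 and BMF, which is released on loss of attachment, -0.14, and their arrays overlapped between the groups.

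Of the caspases, CASP8, the initiator of the death receptor arm, was the only one of the 4 members whose arrays did not overlap. It was at 71.5, 68.5 and 73.2 on the control arrays and at 59.6, 61.7 and 67.3 on the maspin-labelled arrays (log2 fold change -0.18, SE 0.08, limma adjusted p = 0.385). The other CASP8 probes, both dimmer, had log2 fold changes of 0.10 (SE 0.09) and -0.025 (SE 0.11), and their arrays overlapped. CASP2, CASP6 and CASP9 lay between -0.11 and 0.09 on the log2 scale.

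In the apoptosome, APAF1 was at 44.3, 44.3 and 26.3 on the control arrays and between 33.3 and 36.1 on the maspin-labelled arrays, so that control arrays were both the highest and the lowest. Its log2 fold change of -0.11 (SE 0.19) was -0.36 without control replicate 3 and 0.015 or 0.016 without either of the others. XIAP, which inhibits caspases, was the steadiest member, between 18.8 and 19.6 on the control arrays and between 18.8 and 19.7 on the others (log2 fold change -0.0097, SE 0.07). CYCS, which encodes cytochrome c, was blank on control replicate 1 and at 1.17 and 1.77 on control replicates 2 and 3, and at 3.16, 1.22 and 2.17 on the maspin-labelled arrays. Each of these values lay under the brightest negative control spot of its array, so no level or difference of CYCS could be measured.

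In the death receptor arm, the receptor FAS, the adaptor FADD and CFLAR, which encodes the caspase-8 inhibitor FLIP, had log2 fold changes of 0.09, 0.023 and -0.06, each smaller than its SE (0.09, 0.13 and 0.15). FAS was dim, at 21.8 to 23.5 on the control arrays and 22.2 to 26.5 on the others.

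Of the other p53 targets, 6 were tested and none had an unadjusted p under 0.05 in limma, 5 of them lying above 0. MDM2, the ubiquitin ligase of p53, was at 163, 192 and 171 on the control arrays and at 204, 180.1 and 172 on the maspin-labelled arrays (log2 fold change 0.08, SE 0.10). GADD45A, a DNA damage response gene and the brightest member, was at 786 to 1032 on the control arrays and at 903 to 947 on the others (log2 fold change 0.012, SE 0.11). ZMAT3, a p53-induced RNA-binding protein, had 0.24 but a SE of 0.21, with control replicate 3 at 46.3 and the other control arrays at 67.7 and 85.2. TP53I3, an oxidoreductase, RRM2B, a subunit of ribonucleotide reductase, and SESN1, a stress sensor upstream of mTORC1, had 0.10, 0.08 and -0.04. A dimmer SESN1 probe, between 10.7 and 30.3 over the 6 arrays, had 0.43. BTG2, an antiproliferative gene, was at 3.27, 1.94 and 2.70 on the control arrays and at 3.34, 2.99 and 3.29 on the others, near the brightest negative control spots, and was not tested.

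**Figure D3:**
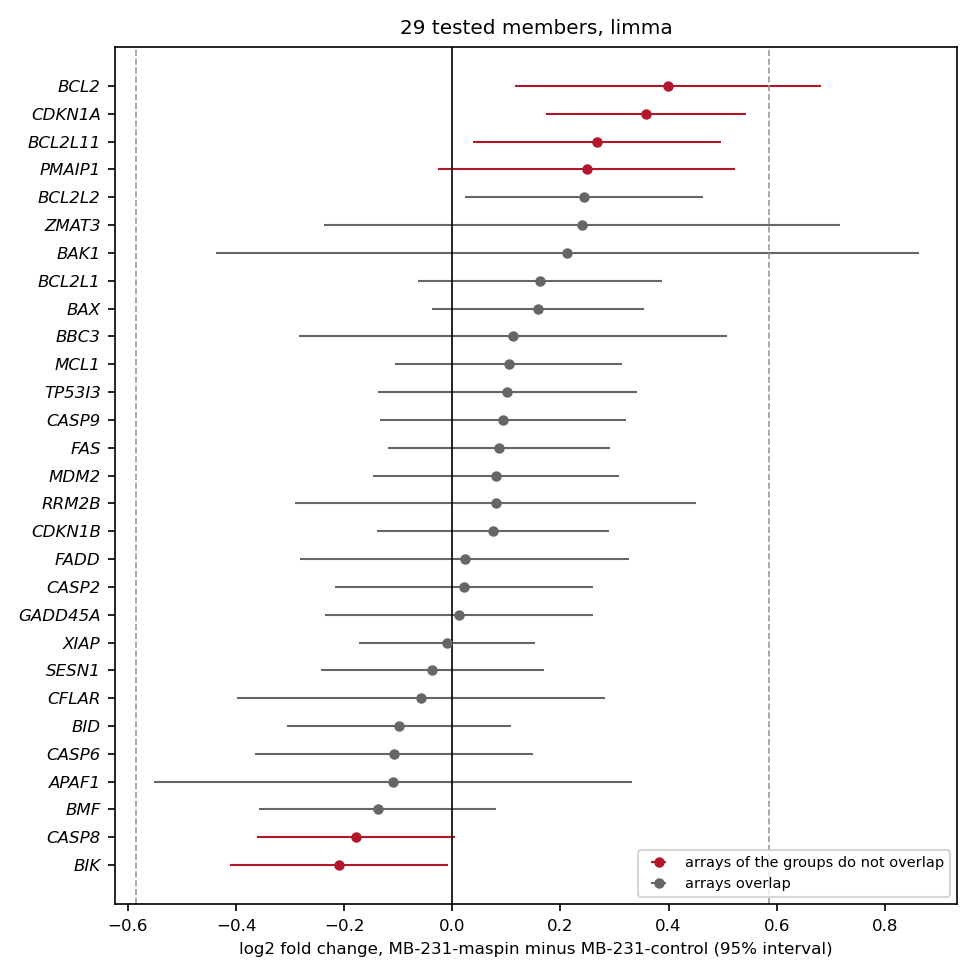
The log2 fold change of the 29 tested members from limma with its 95% interval, in order of size, with dashed lines at a 1.5-fold difference. Red marks the members without overlap between the groups, and only BCL2, ZMAT3 and BAK1 have an interval that crosses a dashed line.

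For 26 of the 29 the 95% interval of the fold lay within a 1.5-fold difference in either direction (89.7%, against 91.8% of all genes tested), and the exceptions were BCL2, ZMAT3 and BAK1. The log2 fold changes ran from -0.21 for BIK to 0.40 for BCL2.

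Of the further genes of these pathways, none passed at an adjusted p among the 12 tested of the remaining BCL2 family, the 18 caspases, inhibitors of apoptosis and mitochondrial effectors, the 15 death receptor genes and the 29 p53 targets and regulators. At an unadjusted p under 0.05 from limma, 2 genes of the BCL2 family list were higher and none lower, against 9.49% higher and 3.84% lower over all genes, namely BNIP2 with a log2 fold change of 0.20 and BAG3, a co-chaperone, with 0.18. Of the second list, BIRC6, a large inhibitor of apoptosis, with 0.26 and PARP1, a DNA repair enzyme, with 0.22 were higher, and BIRC3, an inhibitor of apoptosis induced by NF-κB, was lower with -0.25. Of the third, FAF1 and DAXX, which bind FAS, were higher with 0.23 and 0.33, and TNFSF10, which encodes the ligand TRAIL, was lower with -0.27, at 345 to 398 on the control arrays and 279.5 to 319 on the others.
Of the p53 targets and regulators, 5 were higher and 2 lower at an unadjusted p, that is 7 of 29, beside 13.3% of all genes. The 4 with the smallest p were all higher. They were FDXR, a mitochondrial reductase, with 0.26, SFN, which encodes 14-3-3σ, with 0.22, ACTA2, a smooth muscle actin, with 0.24 and CCNG1, a cyclin, with 0.21. The others were DDB2, a DNA repair factor, with 0.47, and as the lower ones GDF15, a secreted stress cytokine, with -0.41 and SESN2, a relative of SESN1, with -0.20. The medians of the lists were 0.15, 0.07, -0.0040 and 0.07, beside 0.04 over all genes.

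**Figure D4:**
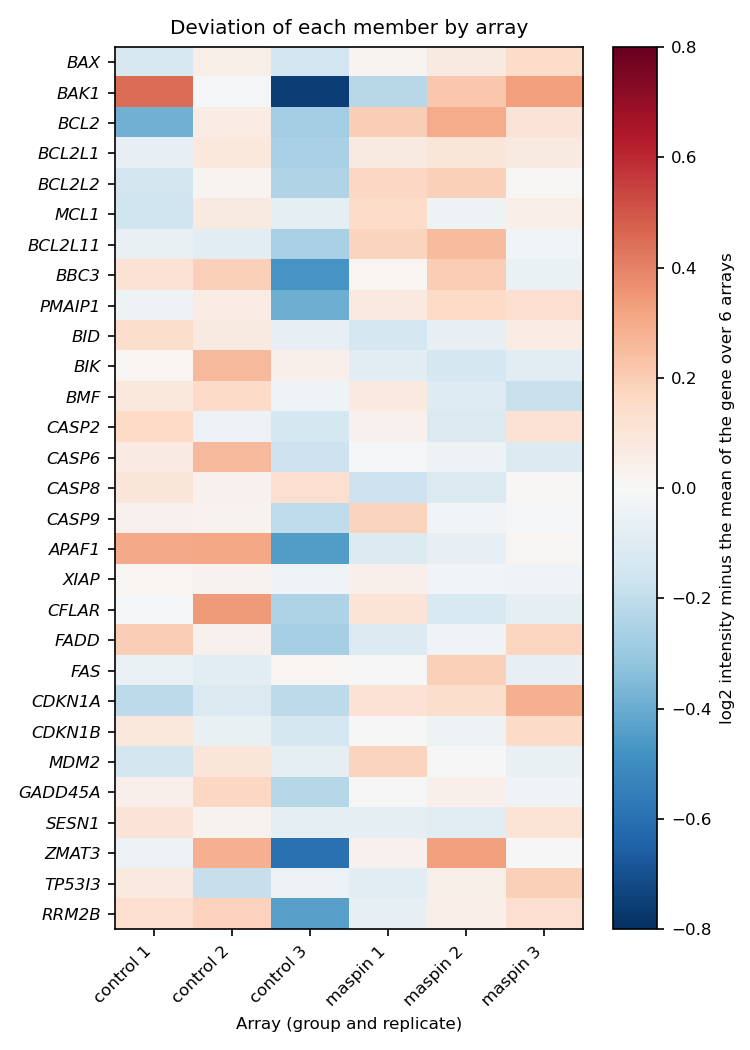
Log2 intensity of each of the 29 tested members on each array, minus the mean of that gene over the 6 arrays. The column of control replicate 3 is mostly blue, with 17 members at their lowest value on that array.

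Control replicate 3 was the lowest of the 6 arrays for 17 of the 29 members (58.6%) and for 51.5% of all genes tested. The median deviation of the members from their own means was -0.20 on that array, and between 0.0025 and 0.06 on the others. Over all genes it was -0.12 on control replicate 3. Without control replicate 3, 14 of the 29 members lay above 0, with a median of -0.03, as did 42.6% of all genes, with a median of -0.03. BAK1, BBC3, RRM2B, FADD, GADD45A and CASP2 then lay below 0. CDKN1A had a log2 fold change of 0.34 without that array.

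The genes that lie near a member were compared with it. Of the 20 tested genes nearest to BCL2 on chromosome 18, 10 on each side, 17 lay above 0. The median log2 fold change of the 20 was 0.22. For 8 of them the maspin-labelled arrays lay all above the control arrays, a share that was 13.8% over all genes. On chromosome 18 as a whole that share was 21.5%, and the median log2 fold change was 0.11. KDSR and VPS4B, which lie between BCL2 and SERPINB5, had 0.31 and 0.28. PMAIP1, on the same chromosome, also had 17 of 20 neighbours above 0, with a median of 0.22, and 8 whose arrays lay all above, but 13 of its 20 neighbours were also neighbours of BCL2. The median of these medians over all placed genes was 0.04, and 95% of them lay at or under 0.16. For CDKN1A the neighbours had a median of 0.07, with 7 of 20 all above, on a chromosome where that share was 33.1%, the highest of the 23 compared. Other members differed from their neighbours. The neighbours had a median of 0.17 for XIAP (own value -0.0097), 0.16 for SESN1 (own value -0.04) and -0.0095 for BCL2L2 (own value 0.24). The dimmer SESN1 probe had 0.43. Across the 29 members Pearson's r between the log2 fold change and the median of the neighbours was 0.30 (Spearman's rho 0.22), and across all 12494 placed genes it was 0.24 (0.27), where genes are not independent and share the same arrays. The part of chromosomal position in the differences of the members was not tested.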

How the data were processed

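Total RNA of both lines was measured on 6 1-colour arrays. The authors subtracted 1 background value per array from the raw intensity (67.8 to 70.3 scanner units) and scaled the intensity to a median of 25 over the values present; other spots are blank and were not imputed. A second deposited file, 1 table for all arrays, gives the same values after rounding (unit: score) and served as an alternative. Depth has no meaning for arrays, and the number of arrays limits the precision.

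The log2 intensities of 12766 genes were fitted with limma 3.58.1 in R 4.3.3 (lmFit and eBayes, two-sided, maspin minus control, Benjamini-Hochberg adjustment over all genes). Intervals are those of the moderated test. Student's test, which the methods name, was run as an alternative. A total of 33 symbols turned into dates by a spreadsheet were restored through the Entrez identifier. Chromosomes and neighbours come from RefSeq (12505 genes placed), and the build behind the array annotation is not given in the sources used here. Python 3.11.15 with pandas 2.3.3 and matplotlib 3.10.9 was used for summaries and plots. The code was tested on simulated data.

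The members and the lists of further genes were chosen with earlier results of these data known. Values on every array are given for members with an unadjusted p under 0.05, for those whose arrays do not overlap, for BAX and CDKN1A and for members blank on an array. BAK1, BBC3, APAF1, ZMAT3, MDM2, BTG2, the dimmer SESN1 probe, DDB2, GDF15, SESN2 and the chromosomal neighbours were singled out after their values were seen. Of each list up to 4 genes past the unadjusted p are named, and some genes are not reported here.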

Additional observations from a re-analysis of the deposited data

How the results depend on the processing

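The alternatives were Student's test of the methods, an intensity trend with a robust prior, no minimum and a minimum of 50, quantile normalization, a normexp correction (offset 50) before quantile normalization, called normexp here, log2(value + 10) with blanks as 0, the rounded table, every probe, a block for the replicate number, and leaving out single arrays. Of the 29 members, 17 kept their direction in all of them that could be run. BCL2 was among these, but its second probe, with the lower range on the maspin-labelled arrays, was under the minimum and did not count. The number of members past the adjusted threshold was 0 in each, except without control replicate 2 (0 to 1 over the arrays left out). The number at an unadjusted p, 5, became 3 of 17 members tested with a minimum of 50 (14.1% of all genes) and 9 with normexp (17.9%). It was 2 of 29 in Student's test, a smaller share than the 13.8% of all genes. With an array left out it was 2 to 8, beside 7.8% to 26.1% of all genes. The 8 came without control replicate 2, where that share was 26.1%. Those higher, 4, became 2 and 1 with the minimum of 50 and Student's test, and 2 to 7 with an array left out. The genes called over the whole array, 109, became 43 with a minimum of 50, 55 with none, 239 with normexp, 21 in Student's test and 29 to 218 with an array left out. The 15 further pathway genes at an unadjusted p became 3 to 23 with an array left out, the 23 again without control replicate 2. Directions turned for 12 members. CASP2 had -0.0047, FADD -0.030 and GADD45A -0.067 with normexp, and FADD had -0.022, GADD45A -0.061 and XIAP 0.0089 with quantile normalization. Single probes that turned were those of CASP8 (0.10), MCL1 (-0.21) and SESN1 (0.43). With an array left out, the log2 fold change ran from -0.36 to 0.016 for APAF1, -0.11 to 0.49 for BAK1, -0.10 to 0.23 for BBC3, -0.044 to 0.11 for CASP2, -0.20 to 0.10 for CFLAR, -0.11 to 0.13 for FADD, -0.10 to 0.10 for GADD45A, -0.12 to 0.19 for RRM2B, -0.10 to 0.0061 for SESN1 and -0.031 to 0.0030 for XIAP. The cause was not tested. Whether the replicate numbers pair the samples is not given in the sources used here. Deviations from the group mean correlated at -0.37, 0.48 and 0.19 between same-numbered arrays and at -0.49 to 0.31 between the others. With deviations from a mean of 3 arrays these correlations balance around 0, so they cannot decide it. With the replicate block, 117 genes were called over the whole array. At an unadjusted p, 5 of the 29 members passed, beside 13.9% of all genes, as did 12 of the further pathway genes. These 5 members were all higher, since BIK was lost and PMAIP1 gained. The share of all genes that were higher at an unadjusted p was not counted in the alternatives. Dim members lay closest to the negative control spots, with BCL2 at 7.78 to 12.5 and the brightest such spot of an array at 2.58 to 9.35. Whether this changed their fold was not tested.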
